A study of Homo sapiens with 2 samples.

Results

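NeuroD1 is a basic helix-loop-helix transcription factor of neuronal and endocrine development. It binds DNA as a dimer with an E protein at short motifs called E-boxes, written CANNTG. Binding sites of such factors lie at gene starts and also far inside genes, where they can fall in enhancers or in starts of shorter transcripts of the same gene. The sites described here are those deep inside protein-coding genes of moderate length in IMR-32, a MYCN-amplified line derived from human neuroblastoma.

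ChIP-seq recovers and sequences the DNA fragments that a protein holds, and a peak is a place where reads pile up above the local background. The study holds 1 NeuroD1 ChIP library and 1 input library, that is, chromatin sequenced without an antibody, both from wild-type IMR-32 cells without further treatment named in the labels. Only the ChIP library's peaks were analysed. No replicate was analysed, so no comparison below carries a test, and peaks of 1 library are not replicates of each other. The labels name an antibody to NeuroD1, while the supplementary ChIP-seq methods name one to H3K27Ac, a histone mark of active enhancers and promoters. The paper reports that NeuroD1 motifs were enriched at its NeuroD1 ChIP-seq sites in this line. It lists its H3K27Ac data as a separate set made by another method, CUT&Tag. The peaks were used as labelled, and which antibody made them was not tested.

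A peak was taken as deep when it overlapped a protein-coding RefSeq gene, when each protein-coding gene it overlapped was shorter than 200 kb, and when it lay over 10 kb from both ends of every protein-coding gene. Of the 6183 peaks, 627 met this rule, or 10.1% (95% exact Clopper-Pearson interval 9.40 to 10.9). They lay in 513 genes, and 11 of them overlapped 2 genes. For comparison, 685 peaks lay deep in a gene of 200 kb or more, 3521 lay within 10 kb of a gene end, and 1350 lay outside genes and over 10 kb from any end. The rule used position only, so strength and width are free of it, whereas position inside the gene is described within its limits.

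The peaks nearest the limits of the rule, on either side, were spread over the common range of strength. Just inside the 10 kb limit, a peak in both CYGB and PRCD lay 10061 bp from the nearest end with a fold enrichment of 7.36. The next lay in KANK2 at 10081 bp (5.15-fold) and in ITGB5 at 10086 bp (4.66-fold). Just outside lay peaks in RABGEF1 at 9992 bp (13.5-fold), DISP2 at 9956 bp (5.78-fold) and LMF1 at 9859 bp (11.1-fold). At the 200 kb limit, the longest genes kept were LRCH1 at 199.9 kb, with peaks of 11.6-fold and 9.95-fold, and NEDD9 at 199.1 kb (7.79-fold). The shortest genes left out were ST6GALNAC5 (6.54-fold), TSHZ3 (5.79-fold) and HTR1F (7.71-fold).

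Some of the deep peaks lay at an internal start of their own gene, that is, at the start of a shorter transcript that RefSeq lists. Internal here means inside the outer ends of the gene, and whether such a start is the main one of its gene was not analysed. For these peaks, the sequence just before the start is known. It is shown here for the 3 strongest of them (TJP3, LPIN1 and AMOTL1) and for 3 further peaks of over 10-fold that hold E-boxes (PLEKHA6, FRMPD1 and CHRNB4). It is also shown for the strongest peak of PRKAR1A, the gene in which 3 peaks crowded around such starts. Each line gives the bases before the listed start that the peak covers, at most 250 of them, from RefSeq GRCh38.p14, 5′ to 3′ on the strand of the gene. Capitals mark every CANNTG, which reads the same on both strands.
TJP3 (chr19:3721487-3721735, + strand): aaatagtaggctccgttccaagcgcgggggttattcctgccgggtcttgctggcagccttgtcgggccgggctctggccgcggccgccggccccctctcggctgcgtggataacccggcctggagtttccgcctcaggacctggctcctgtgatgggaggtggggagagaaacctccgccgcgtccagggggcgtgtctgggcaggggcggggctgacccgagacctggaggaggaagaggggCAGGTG
LPIN1 (chr2:11746400-11746631, + strand): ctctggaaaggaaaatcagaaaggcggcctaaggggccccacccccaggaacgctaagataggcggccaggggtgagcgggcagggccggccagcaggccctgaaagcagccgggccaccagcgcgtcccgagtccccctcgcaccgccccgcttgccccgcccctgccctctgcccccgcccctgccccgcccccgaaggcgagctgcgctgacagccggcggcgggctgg
AMOTL1 (chr11:94768106-94768355, + strand): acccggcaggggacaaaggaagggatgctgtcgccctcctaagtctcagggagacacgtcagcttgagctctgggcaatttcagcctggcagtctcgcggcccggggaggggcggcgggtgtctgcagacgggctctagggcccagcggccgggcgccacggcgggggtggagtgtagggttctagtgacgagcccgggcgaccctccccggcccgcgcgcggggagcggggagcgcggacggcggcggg
PLEKHA6 (chr1:204359930-204360097, - strand): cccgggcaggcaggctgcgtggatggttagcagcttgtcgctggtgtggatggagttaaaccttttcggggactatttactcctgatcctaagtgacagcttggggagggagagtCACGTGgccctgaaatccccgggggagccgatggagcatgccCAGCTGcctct
FRMPD1 (chr9:37650724-37650941, + strand): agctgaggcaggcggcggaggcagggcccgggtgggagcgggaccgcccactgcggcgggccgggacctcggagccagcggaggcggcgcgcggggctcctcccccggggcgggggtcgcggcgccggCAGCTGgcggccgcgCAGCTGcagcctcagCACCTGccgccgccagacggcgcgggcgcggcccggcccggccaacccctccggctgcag
CHRNB4 (chr15:78641211-78641460, - strand): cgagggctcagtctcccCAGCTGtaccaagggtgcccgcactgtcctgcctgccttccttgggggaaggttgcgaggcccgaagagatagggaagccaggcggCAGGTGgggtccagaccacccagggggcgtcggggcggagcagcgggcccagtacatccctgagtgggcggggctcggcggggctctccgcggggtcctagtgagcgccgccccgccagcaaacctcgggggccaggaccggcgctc
PRKAR1A (chr17:68511750-68511967, + strand): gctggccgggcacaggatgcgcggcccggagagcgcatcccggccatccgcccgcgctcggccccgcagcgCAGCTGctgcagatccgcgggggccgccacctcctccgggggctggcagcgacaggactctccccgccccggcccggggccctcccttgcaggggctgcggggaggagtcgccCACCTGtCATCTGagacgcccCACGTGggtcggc

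The TJP3 stretch held 1 E-box, PLEKHA6 and CHRNB4 held 2 each, FRMPD1 held 3, PRKAR1A held 4, and those of LPIN1 and AMOTL1 held none. The stretches of the other PRKAR1A peaks, at 4.86-fold and 4.32-fold, are not shown and held none. In FRMPD1 the nearest E-box of the stretch was centred 10.5 bp from the summit, the base with the highest signal. In PLEKHA6 it lay 19.5 bp away, in PRKAR1A 14.5 bp and in CHRNB4 46.5 bp. In TJP3, the strongest of all deep peaks, the CAGGTG lay 182.5 bp from the summit. The stretches stop at the listed start and at the window. Bases of the peak beyond them were thus not searched, except in FRMPD1, whose stretch covers the whole peak. In PLEKHA6 the summit itself lay outside the stretch, 11 bp past the listed start. PLEKHA6, FRMPD1 and CHRNB4 were shown because they hold E-boxes. The stretch of CUL2, a peak of 11.1-fold, also held 1 and is not shown.

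Of the 4 position classes, the deep peaks had the highest median strength, by a small margin. Fold enrichment, the ratio of ChIP reads to local background at the summit after 1 is added to both, had a median of 7.23 over the 627 peaks (95% interval of the median over peaks 7.08 to 7.34), with quartiles of 5.79 and 9.02 and a range from 2.38 to 37.6. The median over all peaks was 6.79. It was 6.86 within 10 kb of gene ends (6.75 to 7.06), 6.79 outside genes (6.75 to 7.04) and 6.54 deep in the longer genes (6.34 to 6.75), so that the interval of the deep peaks lay above the other 3. Peaks with a local background above 7 were kept in these medians. They were 1 deep peak, 26 near gene ends, 54 outside genes and 31 deep in the longer genes, and their part in the difference was not tested. The −log10 q measures how unlikely the reads are under the background after adjustment over the genome. Its median was 8.26 for the deep peaks (7.67 to 8.73) and 7.67 for all peaks. Near gene ends it was 7.64 (7.32 to 8.04) and outside genes 7.86 (7.32 to 8.25), and both intervals overlapped that of the deep peaks. Deep in the longer genes it was 7.26 (6.84 to 7.32).

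A fold enrichment of at least 10 was reached by 15.3% of all peaks. Among the deep peaks 103 reached it, or 16.4% (13.6 to 19.6), a share near that background. Near gene ends the share was 16.3%, and deep in the longer genes it was 11.1% (8.84 to 13.7), so that these intervals touched. The 103 peaks lay in 95 genes.

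The deep peaks rested on few reads. Their summits held from 8 to 147 ChIP reads with a median of 17, against a local background with a median of 1.31 reads. The intervals given here reflect the error of counting alone, and reads are not proven to be independent molecules. A background far above this level was found at 1 deep peak. It lay in MEIS1, a homeobox factor on the short arm of chromosome 2, at chr2:66546794-66547003, with 147 reads over a background of 60.0 and the lowest fold enrichment of the set, 2.38. Deep in the longer genes, by contrast, 31 peaks had a background above 7. Within 0.5 Mb of MYCN, the amplified locus of this line, the median background of 24 peaks was 45.9, against 1.30 at all other peaks.

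In width, the deep peaks were close to the library as a whole. Their median was 214 bp (205 to 222), from 146 to 628 bp, against 220 bp over all peaks, 214 bp outside genes, 228 bp near gene ends and 202 bp deep in the longer genes. A width of 450 bp or more was reached by 25 deep peaks, or 3.99% (2.60 to 5.83), against 5.92% of all peaks. The widest lay in FOXK2, a forkhead transcription factor (628 bp, 11.5-fold). It was followed by BCL9, a coactivator of Wnt signalling (613 bp, 12.4-fold), and CFAP77, a cilia protein (584 bp, 13.4-fold). CMTR1, an mRNA cap methyltransferase (583 bp, 9.53-fold), and TGFA, a ligand of the EGF receptor (556 bp, 9.29-fold), came next. All of these 5 were stronger than the median deep peak, and none lay at a listed start.

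**Figure D1:**
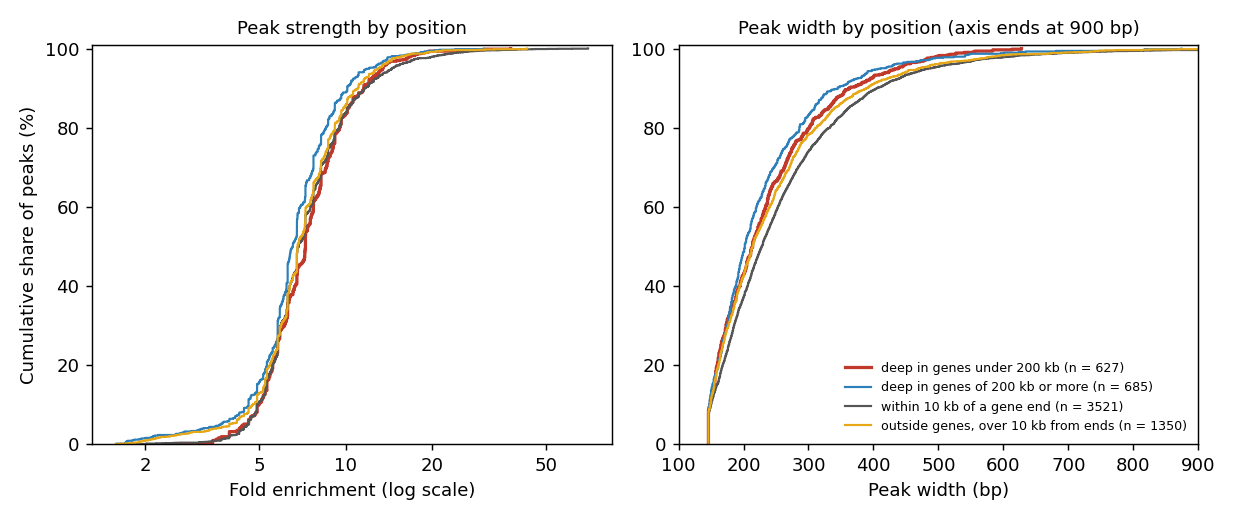
Cumulative share of peaks (%) by fold enrichment (left, log scale) and by width in bp (right), 1 line for each position class of the NeuroD1 peak list. The line for deep peaks in genes under 200 kb (median 7.23-fold, 214 bp) lies to the right of the other classes at the middle of the strength plot and, in width, between the class near gene ends (228 bp) and the class deep in longer genes (202 bp).

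The strongest deep peaks lay in genes of unlike function. First came TJP3, which encodes a scaffold protein of tight junctions, with a peak at chr19:3721393-3721735 of 37.6-fold. Its summit was covered by 77 reads (95% exact Poisson interval 60.8 to 96.2). With the background held fixed, this gives a fold enrichment from 29.8 to 46.8, and the peak ranked 14 among all 6183. RERG, a Ras-like GTPase that restrains growth, had 30.6-fold at chr12:15201381-15201852 (24.1 to 38.3). LPIN1, the phosphatidate phosphatase lipin 1, had 28.7-fold at chr2:11746400-11746913 (22.3 to 36.5). The intervals of these 3 overlapped, so their order is not settled at this depth.

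The next 7 lay between 17.5-fold and 23.3-fold, and their intervals overlapped too. PCP4L1, a small protein related to the calmodulin regulator PCP4, had 23.3-fold from 54 reads. SMIM41, a small membrane protein, had 19.5-fold from 43 reads. AMOTL1, an angiomotin-like protein of cell junctions, had 19.3-fold from 39 reads. These 3 peaks differed in their surroundings, since the one in PCP4L1 lay 10.3 kb from the nearest gene end and the one in AMOTL1 61.6 kb.

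SPTBN4, the spectrin of axon initial segments and nodes of Ranvier, had 18.8-fold from 38 reads. INSR, the insulin receptor, had 18.3-fold from 37 reads, at the most remote site of the 10, 85.7 kb from any gene end. CASZ1, a zinc finger transcription factor of neural development, had 17.8-fold from 36 reads. KIAA1614, for which no role is given here, had 17.5-fold from 43 reads over a higher background of 1.46. The peaks in TJP3, LPIN1 and AMOTL1 lay at a listed internal start of the gene, and those in PCP4L1, SPTBN4 and INSR did not. The starts of RERG, SMIM41, CASZ1 and KIAA1614 were not analysed here.

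**Figure D2:**
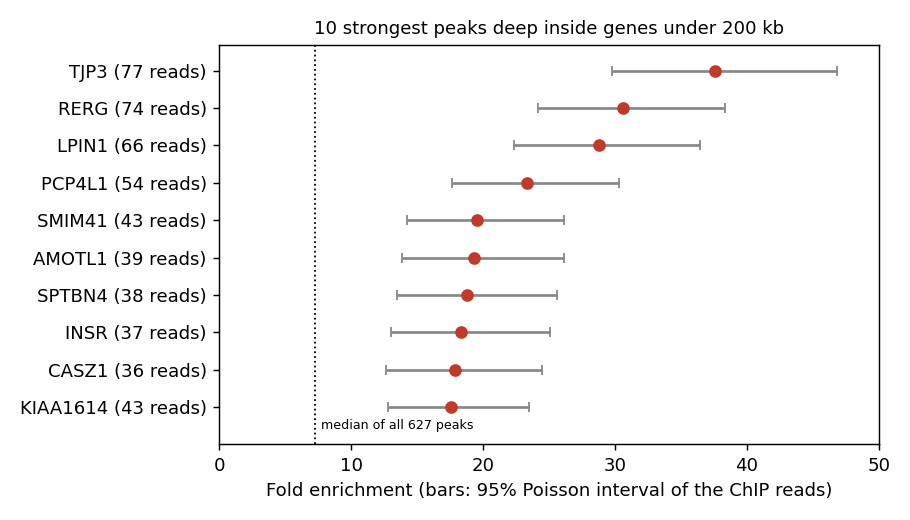
Fold enrichment of the 10 strongest deep peaks, 1 point per peak named by its gene and its ChIP reads at the summit. Bars are 95% exact Poisson intervals of the reads with the background held fixed, and the dotted line is the median of all 627 deep peaks (7.23); all 10 intervals lie above it, from 12.6 at their lowest, in CASZ1.

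The rule kept deep peaks over 10 kb from protein-coding gene ends. The nearest protein-coding gene end lay at a median of 24.5 kb, and at most at 93.7 kb. When the ends of non-coding RefSeq genes were counted too, 436 of the 627 lay over 10 kb from every end. A long non-coding RNA gene also overlapped 54 of the deep peaks (8.61%). Whether a peak fell in an exon or an intron was not analysed here. Genes that held one were long, with a median of 91.0 kb over the 513 genes, against 51.2 kb over the 9291 genes that have sequence the rule could reach. The share of genes with a deep peak rose with length, from 2.27% between 20 and 50 kb to 13.9% between 150 and 200 kb. Per Mb of interior the order was the opposite, from 2.02 peaks per Mb in the shortest of these genes to 1.37 in the longest.

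Over the 407.5 Mb inside genes under 200 kb, deep peaks came at 1.54 per Mb (95% exact Poisson interval 1.42 to 1.66). Inside the longer genes, the density was 1.25 per Mb (1.15 to 1.34), or 1.19 without peaks of a background above 7. For peaks of at least 10-fold, it was 0.253 per Mb (0.206 to 0.307) against 0.138 (0.109 to 0.173), and these intervals did not overlap. The density within 10 kb of gene ends was far higher, at 6.70 per Mb. The deep sites were thus sparse compared with gene ends, and were denser in shorter genes than in longer ones, with Poisson intervals that did not overlap. These intervals take each peak as a separate event, although some peaks of the same gene lay close together, as given below. The spread between libraries is unknown.

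Over chromosomes, deep peaks differed in density and in their share of all peaks of the chromosome. Among the autosomes and the X, that share ran from 4.85% on chromosome 14 to 15.9% on chromosome 9 (40 of 252 peaks). Chromosome 17 had 60 of them, or 3.77 per Mb of interior (2.87 to 4.85), and chromosome 19 had 35, or 3.15 per Mb (2.195 to 4.38). The X chromosome had 2, or 0.123 per Mb (0.0149 to 0.4445), and chromosome 14 had 8, or 0.584 per Mb (0.252 to 1.15). As a share of all peaks of the chromosome, deep peaks made up 10.3% on chromosome 17, 9.62% on chromosome 19, 7.41% of 27 peaks on the X and 4.85% on chromosome 14, against 10.1% overall. On chromosome 17 the median background at deep peaks was 2.55 reads, against 1.31 over all of them, while on chromosome 19 it was 1.04, the lowest level in the library. The part of background in the count on chromosome 17 was not tested.

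Along the gene, deep peaks thinned out towards the end. For the 503 peaks in the 412 genes whose strand is listed, 10 kb was taken off both ends of the gene itself. The rest was cut into 4 equal parts in the direction of transcription. Stretches near ends of other genes were not taken off before the cut. From start to end the 4 parts held 28.2%, 27.0%, 25.4% and 19.3% of the peaks. The same parts held 25.01%, 25.1%, 25.3% and 24.6% of the sequence over 10 kb from all gene ends. Of the 4 intervals, the one of the last part (15.9 to 23.01) alone left out the share of sequence. The 2 parts nearest the start held 55.3% (50.8 to 59.7), against 50.1% of the sequence. Without peaks at listed internal starts, they held 55.1% (50.2 to 59.96) of 419 peaks. For the 83 peaks of at least 10-fold, the 4 parts held 28.9%, 24.1%, 25.3% and 21.7%. There the interval of the last part (13.4 to 32.1) included its share of sequence.

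**Figure D3:**
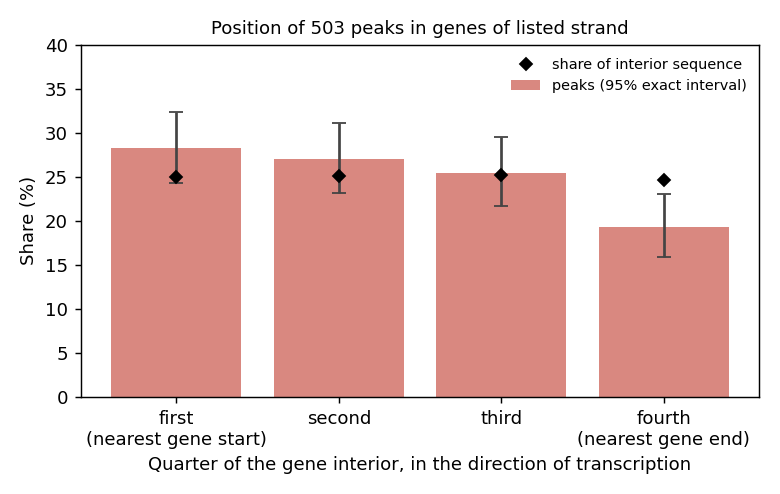
Share (%) of the 503 deep peaks in each of 4 equal parts of the gene, cut after 10 kb was taken off both of its own ends. The parts run from that nearest the gene start (left) to that nearest the gene end (right). Error bars are 95% exact intervals, and diamonds are the share of sequence over 10 kb from all gene ends. The bars fall from 28.2% to 19.3% while the diamonds stay between 24.6% and 25.3%.

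At internal starts, deep peaks were no stronger than elsewhere. Of the 514 deep peaks whose gene is in the RefSeq table of starts, 84 (16.3%, 13.2 to 19.8) overlapped the window from 250 bases before to 50 after a listed start, and for 77 of them, in 74 genes, the start belonged to the gene itself. The other 7 were only at a listed start of a gene other than the one they lay in. The median fold enrichment was 7.18 at listed starts (6.62 to 7.71) and 7.23 away from them, and the share of at least 10-fold was 13.1% against 16.98%. The median width was 231.5 bp (206 to 250) against 214 bp (204 to 222).

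For peaks at a start of their own gene, the summit lay upstream in 64 of 77, at a median of 81 bp before the listed start. Of the 300 bases of a window 250 lie upstream, so this share is near what the window alone gives. These starts were 10.9 to 138.7 kb from the outer start of the gene, with a median of 30.1 kb. Besides TJP3, LPIN1 and AMOTL1, the peaks of at least 10-fold at such starts were in USP30 (14.02-fold), a mitochondrial deubiquitinase, PSMA1 (11.4-fold), a proteasome subunit, CUL2 (11.1-fold), a scaffold of ubiquitin ligases, TET3 (10.5-fold), a 5-methylcytosine oxidase, and the 3 shown above, PLEKHA6 (13.6-fold), FRMPD1 (12.05-fold) and CHRNB4 (11.99-fold). Of these 7, USP30, PSMA1, CUL2 and PLEKHA6 were picked out after their values were seen.

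E-boxes were counted at these starts, and each interval below includes the share at starts with other peaks. Of the 81 windows of 300 bases that hold the summit of a deep peak, 60.5% had a CANNTG (49.0 to 71.2), against 58.3% of 1835 windows with another peak and 68.7% of all 34943 windows. CAGCTG stood in 25.9% (16.8 to 36.9), against 19.1% and 17.9%. Within 50 bp of the summit, for the 67 deep peaks where the window reaches that far, CAGCTG stood in 13.4% (6.33 to 23.97), against 7.76% of 1520 other peaks and 6.03% of all windows in a central stretch of the same length. CAGATG, or CATCTG on the other strand, stood in 14.8% of the windows with a deep peak (7.90 to 24.4), in 9.21% of those with another peak (7.93 to 10.6) and in 14.7% of all windows. Any CANNTG within 50 bp of the summit was found for 35.8% of the 67 deep peaks (24.5 to 48.5), against 26.6% of other peaks (24.4 to 28.9) and 33.1% of all windows. The intervals around these shares are wide, and they say nothing of the deep peaks away from listed starts, whose sequence was not analysed here.

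Most genes with deep peaks had 1. There were 427 such genes, 61 had 2, 16 had 3, 4 had 4 and 5 had 5, so that 86 genes had several. These 86 held 211 peaks, where a peak in 2 genes counts in each. The distance between neighbouring peaks of 1 gene had a median of 10.8 kb, from 0.192 to 92.95 kb, with 42 of 125 under 5 kb and 17 under 1 kb. Having several peaks did not go with greater strength, since the median fold enrichment was 6.87 in these genes and 7.23 in genes with 1. A peak of at least 10-fold was present in 29 of the 86, against 95 of all 513 genes, where a gene with more peaks has more chances to hold one, and 7 genes had at least 2. Within a gene, the strongest peak exceeded the weakest by a median of 1.44 times, and by at most 4.17 times, in RERG.

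The genes with 5 peaks arranged them in unlike ways. KCNN3, a small-conductance calcium-activated potassium channel, held them within 18.4 kb of its 172.8 kb, with 5.68, 7.85, 10.3, 7.57 and 10.6-fold in the order of the coordinates. In CLPB, a mitochondrial protein disaggregase, they spread over 103.0 kb, and 1 peak of 15.4-fold stood above 4 of 5.66-fold to 6.34-fold. KCNN3 thus held a tight cluster, and CLPB a spread of weak peaks with a strong one. SSBP3, a cofactor of LIM-domain transcription complexes, had 3 of at least 10-fold over 83.4 kb, at 14.2, 12.2 and 11.7-fold. CCDC33, a coiled-coil protein, ranged from 5.54 to 10.96-fold over 87.6 kb. CUEDC1, a protein with a ubiquitin-binding CUE domain, ranged from 5.15 to 10.3-fold over 65.1 kb.

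Of the genes with 4, TCF20, a transcriptional coregulator, held its peaks within 26.9 kb at 8.15, 11.4, 13.5 and 7.23-fold. HMCN2, an extracellular hemicentin, had a span of 133.4 kb with the strongest at 16.3-fold. FRMPD1, a protein with FERM and PDZ domains, had 7.23 to 12.05-fold over 92.2 kb, the strongest being the internal start shown above. TPCN1, an ion channel of endolysosomes, stayed below 10-fold, at 4.90 to 8.11 over 26.9 kb. Clusters as tight as those of KCNN3 and TCF20 and spreads as wide as that of HMCN2 were thus both present.

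Among genes with 3 peaks, RERG had the largest contrast, with 30.6-fold beside 8.66-fold and 7.35-fold over 78.0 kb. In KIAA1614 all 3 peaks were of at least 10-fold, at 17.5, 12.7 and 12.7, within 4.12 kb. INSR had its 18.3-fold peak 0.771 kb from one of 5.79-fold. PRKAR1A, the regulatory subunit of protein kinase A, had 3 peaks within 0.811 kb, all at listed internal starts, at 7.36, 4.32 and 4.86-fold. PRKAR1A was named after its values were seen. In LPIN1, with 2 peaks, the peak of 28.7-fold had a neighbour of 13.1-fold at 2.23 kb.

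**Figure D4:**
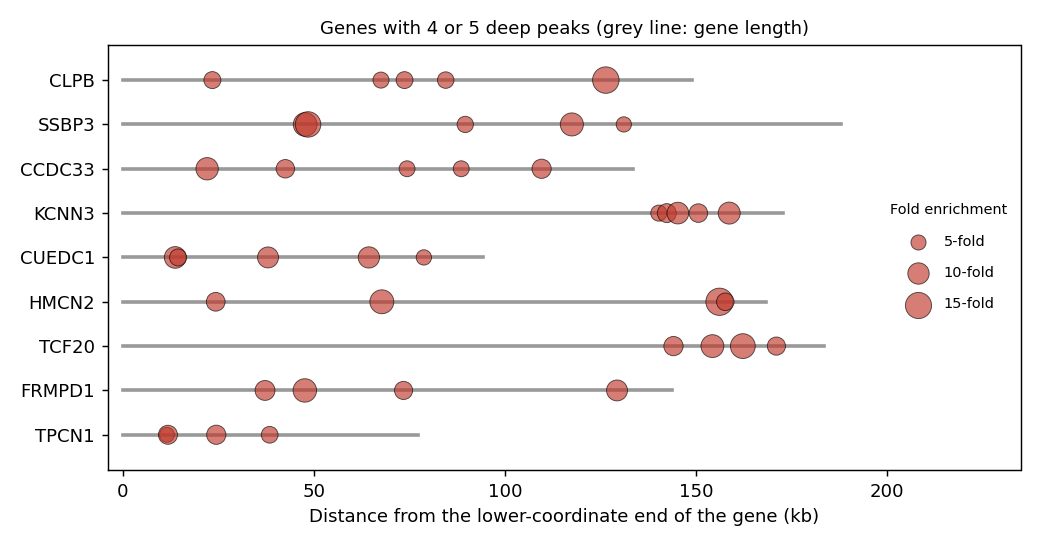
Positions of deep peaks (circles, area in proportion to fold enrichment) along the 9 genes with 4 or 5 of them, in kb from the gene end with the lower coordinate; each grey line is the gene. KCNN3 and TCF20 hold their peaks in 1 stretch of 18.4 kb and 26.9 kb, and HMCN2 spreads them over 133.4 kb.

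Genes with a deep peak also had peaks at their ends more often. Of the 513 genes, 165 (32.2%, 28.1 to 36.4) had a peak within 10 kb of 1 of their ends, against 23.2% (22.3 to 24.1) of the 8778 genes that could have held a deep peak and had none. At the start of the gene 103 of 412 (20.9 to 29.5%) had one, against 19.98% (19.05 to 20.9), and at its end 11.4% (8.50 to 14.9) and 5.69% (5.16 to 6.25), among genes of listed strand. The difference was widest in genes of 20 to 50 kb, at 43.1% against 24.2%, and smallest at 100 to 200 kb, at 25.8% (20.3 to 31.9) against 22.2%, where the intervals overlapped.

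Of the 8 gene lists described, deep peaks were seen most often in transcription factors of neural crest and neuron development and in axon guidance genes, and least often in ZNF genes, by the share of genes. As the background, 5.52% of the 9291 genes with reachable interior held a deep peak. Of the neurogenic and adrenergic transcription factors, 7 of 22 did (31.8%, 13.9 to 54.9), with a median fold enrichment of 7.15 over their peaks, against 7.23 over all deep peaks. The strongest was CASZ1. EBF3, an early B-cell factor of neuronal differentiation, had 10.6-fold, and CBFA2T2, a corepressor of the ETO family, had 9.70-fold and a second peak. KLF7, SATB1, RUNX1T1 and MEIS1 were the others, from 2.38 to 7.71-fold at their strongest peak. The only deep peak in MEIS1 is the one over a background of 60.0, and it is counted in this share and in the density per Mb below.

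Of the axon guidance and neural adhesion genes, 8 of 37 had a deep peak (21.6%, 9.83 to 38.2), with a median of 8.14-fold. PLXND1, a semaphorin receptor, had the strongest, at 16.9-fold. RTN4, the myelin-associated Nogo, had 8.81-fold at an internal start. SLIT1, a repulsive ligand of Robo receptors, had 3 peaks, of 8.54, 6.40 and 6.21-fold. The other 5, the receptors NRP2 and UNC5A, the adhesion protein NRXN2 and the netrins NTN4 and NTNG2, had 1 peak each, of 4.98 to 8.48-fold.

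Chromatin regulators had a deep peak in 16 of 115 (13.9%, 8.17 to 21.6), with a median of 7.23-fold. HDAC5, a histone deacetylase, had 13.5-fold from 54 reads, CHD7, a chromatin remodeller, had 11.6-fold, and TET3 had 10.5-fold. Microtubule and motor genes had one in 9 of 71 (12.7%, 5.96 to 22.7), led by the kinesins KIF19 (11.5-fold), KIF26A (9.16-fold) and KIF21B (9.02-fold). Synaptic vesicle genes had one in 5 of 53 (9.43%, 3.13 to 20.7), led by the complexin CPLX2 (9.503-fold) and the phosphatase SYNJ2 (7.18-fold). The interval of the synaptic genes included the background of 5.52%, and those of the chromatin and microtubule lists did not, although the microtubule list fell within it per Mb, as given below for all lists.

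Ion channels and ligand-gated receptors were near the background, with 5 of 120 (4.17%, 1.37 to 9.46), although those 5 held 11 peaks at a median of 8.96-fold. CHRNB4, a nicotinic receptor subunit of autonomic neurons, had 11.99-fold and 8.96-fold, KCNN3 had 5 peaks, and GLRA3, a glycine receptor subunit, had 10.1-fold. Notch, Wnt and TGF-beta signalling had 4 of 72 (5.56%, 1.53 to 13.6), led by the Wnt coreceptor LRP5 (13.5-fold), the BMP effector SMAD9 (8.55-fold) and the Wnt inhibitor ZNRF3 (7.52-fold). ZNF genes had 7 of 288 (2.43%, 0.983 to 4.94), led by ZNF721 (9.16-fold), ZNF43 (7.71-fold) and ZNF273 (7.21-fold). The lists differ in gene length, from a median of 34.2 kb for the ZNF genes to 75.02 kb for the chromatin regulators. Per Mb of interior, which allows for length, the overall density of 1.54 lay below the intervals of the transcription factors (7.78 per Mb, 3.88 to 13.9), the axon guidance genes (4.12, 1.98 to 7.58) and the chromatin regulators (2.95, 1.83 to 4.51). It lay within those of the microtubule genes (2.28, 1.09 to 4.19), the synaptic genes (2.05, 0.753 to 4.46), the ion channels (1.63, 0.815 to 2.92), the Notch, Wnt and TGF-beta genes (1.32, 0.483 to 2.86) and the ZNF genes (0.979, 0.394 to 2.02).

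**Figure D5:**
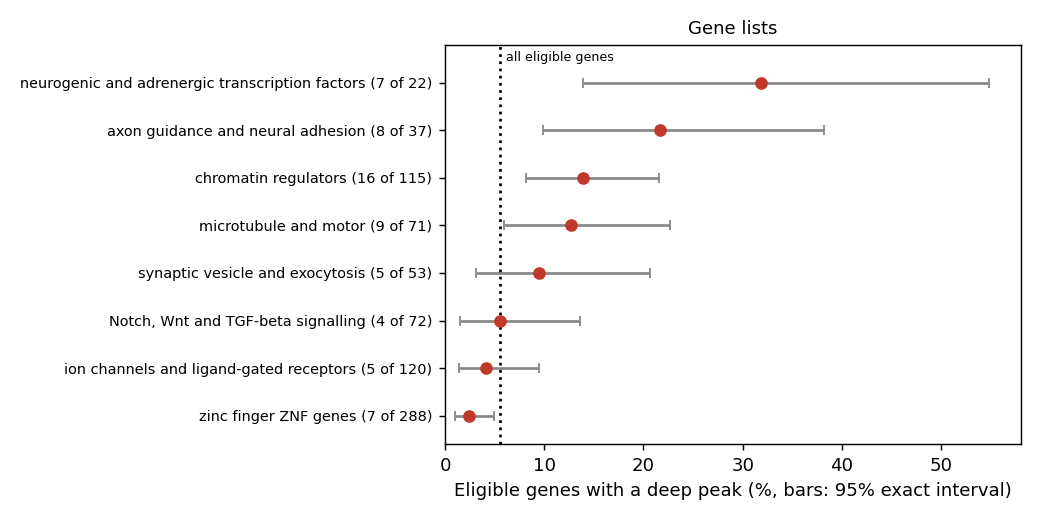
Share (%) of the genes in each list that hold a deep peak, among those with interior sequence the rule could reach, with 95% exact intervals; counts stand beside the names. The dotted line is the share over all 9291 such genes (5.52%), which lies below the intervals of 4 lists, inside those of 3 and above that of the ZNF genes; per Mb of interior it is 3 lists and not 4 whose intervals lie above the overall density, and none below.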

How the data were processed

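NeuroD1 ChIP-seq peaks of 1 IMR-32 library were analysed; the input library was not used here. Per the submitters' processing notes, BWA 0.7.17, MACS2 2.2.7 and hg38 were used, while the peak names carry macs3. The deposited fold enrichment is a ratio of ChIP pileup to local background, with 1 added to both. The authors also deposited −log10 p-values and −log10 q-values at the summit and a score that follows the −log10 q. Total reads are unknown.

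Genes are those of RefSeq GRCh38.p14, and starts and strands those of its table of promoter windows, which lacks chromosome 8 and some other genes. The 18 deep peaks of chromosome 8 are thus absent from the results on strand and internal starts. Reads and background at each summit were solved from these ratios and p-values with the Poisson formula of MACS, at a weight of 0.980 per read found from the steps of the values themselves. A single solution was found for 6182 of 6183 peaks, the exception not being among the deep peaks. The step was tested on simulated data, where the reads of 100.0% of 905 peaks came back. Intervals for shares are exact Clopper-Pearson, those for reads and densities exact Poisson, and those of medians come from the ranked peaks, all at 95%. Genes were eligible when they were over 20 kb and under 200 kb with interior left by the rule.

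Named genes are those of the 10 strongest and 5 widest deep peaks, the 10 with most peaks, up to 3 per list, and the peaks nearest the limits. Further members of the transcription factor and axon guidance lists, MEIS1, USP30, PSMA1, CUL2, PLEKHA6 and PRKAR1A were added with their values already known. The results for 1 gene list and for 1 gene of another list are not reported here. The peaks, the rule and the gene lists were chosen with earlier results of these data known. Scripts ran in Python 3.11.15 with scipy 1.17.1, pandas 2.3.3, numpy 2.4.6 and matplotlib 3.10.9.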

Additional observations from a re-analysis of the deposited data

How the results depend on the processing

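Of 55 values recomputed under other settings, 46 stayed within 1.5 times of a count or inside the 95% interval of a median or share, and 9 did not. Above a −log10 q limit of 5, the median fold enrichment was 7.71, the share of at least 10-fold 20.6%, the median width 228 bp and the genes with 2 or more peaks 54. Above a 5-fold limit, the median fold enrichment was 7.40. Both settings remove weak peaks by construction. Over 20 kb from gene ends, 395 peaks, 321 genes and 55 genes with several were left, since the rule is stricter. With the ends of all RefSeq genes in place of protein-coding ones, 436 peaks were left and 54 genes had several.

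The other settings were the summit in place of the interval, a limit of 5 kb, genes under 150 or 300 kb, and no background above 7. They left between 500 and 847 peaks, with medians between 7.08 and 7.23. By −log10 q, 7 of the 10 strongest peaks by fold enrichment stayed among the top 10. With 17 reads at the median summit, single peaks are imprecise, and one library cannot show the spread between libraries. No paired analysis was possible because there was 1 ChIP library.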
